A study of Mus musculus with 24 samples.

Results

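The 8598 regions described here are KDM6A-bound sites of H3K4me2 at gene ends in cultured mouse small cell lung cancer (SCLC) cells. Each is a 1 kb bin of chromosomes 1 to 19 (mm10), and the bins were chosen by 6 peak lists of the control lines. At least 50% of the bin had to be covered by peaks of KDM6A and of H3K4me2 in both control lines, less than that by H3K27me3 in either of them, and the bin had to lie within 2.5 kb of one end of a protein-coding gene. A bin covered to at least 50% by a library's peaks is called marked below. The series had 385036 autosomal bins marked in at least 1 of its 14 peak lists. Both KDM6A lists marked 16150 bins, of which 14606 (90.4%) had H3K4me2 in both control lines. Removal of the 443 of these with control H3K27me3 left 14163, and 8598 of those lay at gene ends. They formed 6426 runs, of which 4765 were a single bin and the longest held 9. They touched 7350 of 20665 protein-coding genes (35.6%), and 22.9% of the bins lay near more than 1 gene.

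The lines were early passage cultures from tumours of the RPP model, in which the tumour suppressors Rb1, Trp53 and Rbl2 are engineered, so both groups share that background. Lines 159-1 and 1014 carried a control guide RNA (sgControl, called control lines here), and 236L and 236R a guide RNA against Kdm6a (sgKdm6a, called mutant lines). H3K4me1, H3K4me2 and H3K27me3 were profiled by ChIP-seq in all 4 lines and KDM6A in the control lines alone, 24 h after plating. The mutation of 236L and 236R was not checked here. Nothing states that 236L and 236R are from different animals, so the spread between them may be that of 1 animal. With 2 lines in a group, genotype cannot be told apart from other differences between the tumours.

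KDM6A, also known as UTX, removes methyl groups from lysine 27 of histone H3 and is a subunit of the KMT2C and KMT2D complexes, which methylate lysine 4. H3K4me1 marks enhancers and the flanks of active promoters, whereas H3K4me2 spans active promoters and enhancers, and H3K27me3 is the repressive mark of the Polycomb complex PRC2. Promoters in CpG islands often carry H3K4 methylation without H3K27me3, and those of poised developmental genes often carry both. Most SCLC cells express a neuroendocrine programme, with granule and peptide hormone genes, and the transcription factor NEUROD1 marks one subtype.

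Promoters of 7 genes are printed as examples of genes with the states met below. Except at Gtf2a1, a state refers to the gene's member bins, and its start bin need not have it. Each run is the 250 bases before the start, 5′ to 3′ on the strand of the gene, from RefSeq (GRCm38.p6, the assembly of mm10). The capitals mark matches to any of 9 motifs on either strand. Gtf2a1 (chr12:91590488-91590737, minus strand), a general transcription factor subunit, was picked after its values were seen, as the first symbol of the polymerase list with an ETS match and a start bin without H3K4me1 in any line. Txnip (chr3:96557707-96557956, plus strand), an inhibitor of thioredoxin, and Nkx2-1 (chr12:56536909-56537158, minus strand), a transcription factor of lung epithelium, had the most member bins, 9 each. Ier5l (chr2:30474200-30474449, minus strand) stands for bins with H3K4me1 in the mutant lines alone, a pattern of 3 of its 4 member bins. Rasd2 (chr8:75213694-75213943, plus strand), a small GTPase, had the most member bins without H3K4me2 in the mutant lines, and no base of its run matched a motif. Sox2 (chr3:34649745-34649994, plus strand) and Hoxb4 (chr11:96318017-96318266, plus strand), transcription factors of progenitor cells and of the body axis, stand for H3K27me3 in both mutant lines.
Gtf2a1: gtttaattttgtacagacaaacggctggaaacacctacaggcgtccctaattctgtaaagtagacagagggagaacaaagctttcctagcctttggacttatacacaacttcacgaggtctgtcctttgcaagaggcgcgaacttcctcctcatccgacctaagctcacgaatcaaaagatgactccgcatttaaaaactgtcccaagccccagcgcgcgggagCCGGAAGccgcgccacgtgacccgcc
Txnip: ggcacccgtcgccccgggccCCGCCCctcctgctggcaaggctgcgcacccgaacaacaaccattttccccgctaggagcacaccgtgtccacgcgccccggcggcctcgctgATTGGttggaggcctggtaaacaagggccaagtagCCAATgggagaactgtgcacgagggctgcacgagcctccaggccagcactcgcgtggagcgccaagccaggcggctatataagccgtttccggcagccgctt
Ier5l: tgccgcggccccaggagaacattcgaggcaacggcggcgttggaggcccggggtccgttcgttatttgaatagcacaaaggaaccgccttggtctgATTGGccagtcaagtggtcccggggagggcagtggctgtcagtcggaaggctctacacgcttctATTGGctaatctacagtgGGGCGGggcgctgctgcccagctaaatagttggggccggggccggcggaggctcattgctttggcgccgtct
Rasd2: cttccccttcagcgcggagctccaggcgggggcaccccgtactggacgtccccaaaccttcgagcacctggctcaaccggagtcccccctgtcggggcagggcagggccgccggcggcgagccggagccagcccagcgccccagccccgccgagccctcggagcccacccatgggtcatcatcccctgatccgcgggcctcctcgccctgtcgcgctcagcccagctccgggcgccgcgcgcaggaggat
Nkx2-1: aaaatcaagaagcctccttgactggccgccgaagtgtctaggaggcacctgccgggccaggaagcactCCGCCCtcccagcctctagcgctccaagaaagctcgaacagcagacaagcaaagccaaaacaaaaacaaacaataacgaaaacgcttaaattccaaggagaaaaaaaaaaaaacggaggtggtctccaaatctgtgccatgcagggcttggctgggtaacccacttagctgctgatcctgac
Sox2: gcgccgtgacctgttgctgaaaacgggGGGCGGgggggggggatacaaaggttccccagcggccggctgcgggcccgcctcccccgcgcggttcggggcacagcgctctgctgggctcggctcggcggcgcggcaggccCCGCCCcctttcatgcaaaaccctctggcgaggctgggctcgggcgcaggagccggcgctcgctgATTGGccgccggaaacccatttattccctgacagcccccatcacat
Hoxb4: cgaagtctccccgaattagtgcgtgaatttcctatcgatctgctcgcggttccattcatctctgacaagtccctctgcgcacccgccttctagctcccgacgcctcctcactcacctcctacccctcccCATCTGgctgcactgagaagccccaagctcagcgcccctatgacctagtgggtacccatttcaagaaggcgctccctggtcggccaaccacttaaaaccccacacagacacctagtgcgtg
Gtf2a1 had 1 match, to the ETS motif CCGGAAG. Txnip had 2 NFY matches (CCAAT) and 1 SP match (GGGCGG). Sox2 had 2 SP matches and 1 NFY match, Ier5l 2 NFY matches and 1 SP match, Nkx2-1 1 SP match, and Hoxb4 1 match to the NEUROD1 E-box (CAGATG). GC content was 50.8% at Nkx2-1, 51.6% at Gtf2a1, 72% at Sox2 and 75.2% at Rasd2. The 9 member starts whose bin lacked H3K4me2 in both mutant lines had a median GC content of 51.6%, below that of Rasd2. A match is a description of letters, not a bound site.

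Before the results, 1 library set stood apart. Over 14 macrophage markers, H3K4me2 near the gene ends summed to 13.73, 12.46, 63.11 and 5.807 kb in 159-1, 1014, 236L and 236R. H3K4me1 at the same markers summed to 26.13, 25.24, 65.04 and 15.41 kb. The number of these markers without any H3K4me2 peak was 7, 7, 0 and 9 in the same order. Tyrobp, a signalling adaptor of myeloid cells, had 0, 0, 8.175 and 0 kb of H3K4me2, and the leukocyte phosphatase Ptprc had 0, 0, 2.717 and 0 kb. The cells behind 236L thus carried H3K4me2 at markers of another cell type, and the part of this in any result below was not tested. Results are given with 236L and for 236R alone. The neuroendocrine genes Insm1 and Chga and the lung factor Nkx2-1 carried H3K4me2 in all 4 lines. The H3K27me3 lists covered 45.3, 110, 13.6 and 29.37 Mb of the autosomes, so 236L had the shortest list, and the H3K4me2 lists 83.57, 85.89, 74.22 and 71.88 Mb. Sequencing depth is unknown. The 2 control H3K4me2 lists were deposited under names that swap 159-1 and 1014, and their values are given here by sample label.

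H3K4me2 was found at nearly all of these gene ends in the mutant lines as well. It marked 94.7% of the member bins in 236L and 97.7% in 236R. By the rule it marked 100% in both control lines, so the control value is a condition of entry and mutant against control is no test. All 4 lines had the mark at 8109 bins. It was absent from 236L alone at 293 bins, from 236R alone at 33 and from both mutant lines at 163 (1.9%). Of all 31495 gene-end bins with control H3K4me2 and no control H3K27me3, 5.96% lacked it in both mutant lines. Those 31495 include the members.

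The same step was taken for 17102 gene-end bins that KDM6A marked in neither control line (called KDM6A-free, although peaks may cover less than 50% of such a bin) and for 5565 KDM6A-bound bins away from gene ends. H3K4me2 marked 81.7% and 86.9% of the KDM6A-free gene ends in 236L and 236R, and 46.6% and 76.2% of the distal sites. Both mutant lines had the mark at 94.3% of the member bins, which was 17.7 percentage points above the KDM6A-free gene ends. In 236L alone the difference was 13 points and in 236R alone 10.9. Members had the highest value of the 3 sets in both lines. With 2 mutant lines this difference has no test over lines.

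The rule favours strong control peaks, so the bins were also set in 5 classes by the fold of their control H3K4me2 peaks, ranked within each list. From the weakest to the strongest class, both mutant lines had H3K4me2 at 78.8, 95.3, 96.2, 97 and 98.4% of the member bins. The KDM6A-free gene ends had it at 62.6, 80.6, 81.2, 81.2 and 80.1%. Members were higher in all 5 classes. The weakest class held the lowest value of each set. By the width of the control peak, the members ran from 81% in the narrowest class to 97.3% in the middle class, and the KDM6A-free ends from 68.3% to 84.4%, reached in the second narrowest.

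**Figure D1:**
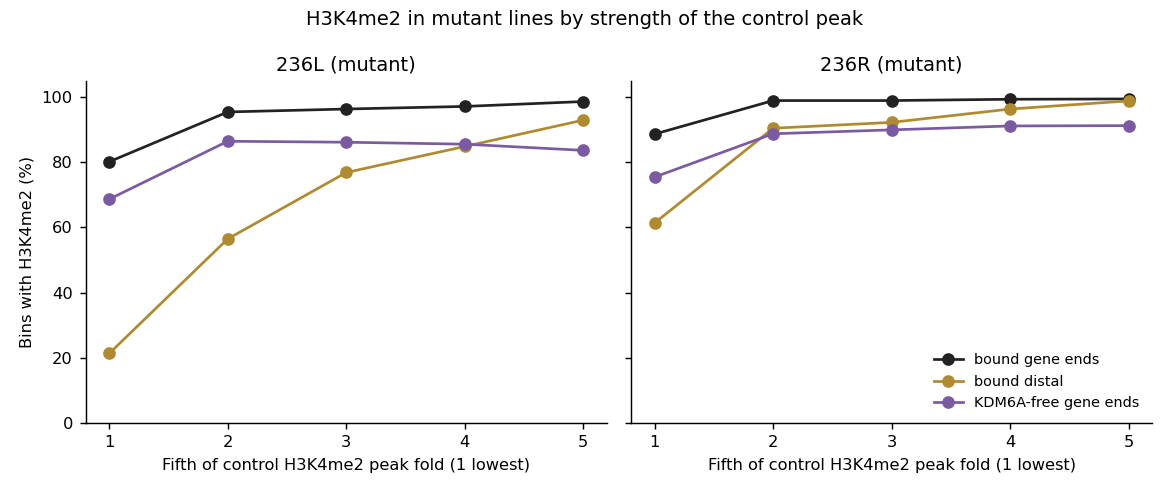
The percentage of 1 kb bins with H3K4me2 in each mutant line (y axis) by class of the control peak's fold (x axis, 1 the weakest and 5 the strongest) for KDM6A-bound gene ends, KDM6A-bound distal sites and KDM6A-free gene ends. Points are shares of bins, and the bound gene ends lie above the KDM6A-free ones in all 5 classes of both lines.

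Position within the gene end separated the bins further. Of the members, 6617 (77%) lay within 2.5 kb of an annotated start, 289 near a far end only, and 1692 near genes whose strand was not known here. Near a start, H3K4me2 marked 96.8% in 236L and 98.8% in 236R. Near a far end only, it marked 50.9% and 73.4%. Bins that hold a start numbered 4072, and 99.1% of them had H3K4me2 in both mutant lines. KDM6A-free bins that hold a start had it in 91.6% of 2480. At 2 bins from a start the values were 80.5% of 359 members and 66.7% of 2985 KDM6A-free bins. The members' H3K4me2 was thus most complete at the start itself and least so at far ends.

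The 163 bins without H3K4me2 in either mutant line differed from the rest in H3K4me1 and position. H3K4me1 marked 97.5% and 96.9% of them in 159-1 and 1014, against 18.7% and 16.4% of all members, and it marked 17.8% in 236L and 82.2% in 236R. Only 5.52% held a start, against 47.4% of all members, and the median control H3K4me2 peak was 2.464 and 2.12 kb wide, against 3.798 and 3.838 kb. These bins belonged to 173 genes. Rasd2 held 4 of them, and its H3K4me2 cover near the gene ends was 8.844, 8.271, 3.138 and 5.18 kb in 159-1, 1014, 236L and 236R. H3K4me1 at Rasd2 was 8.315, 7.881, 2.915 and 8.23 kb, so 236L was below the control lines and 236R lay between them.

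Fancc, a gene of DNA crosslink repair, had 5.621 and 4.154 kb of H3K4me2 in the control lines against 0.296 and 0.335 kb, while H3K4me1 covered 5, 5, 5.389 and 5 kb. Ccdc33, a coiled-coil protein gene, had 4.053 and 3.556 kb against 0 kb in both mutant lines. At Ccdc33 H3K4me1 was 5.939, 8.064, 0 and 4.311 kb. Both genes had H3K4me2 groups that did not overlap, and 236R kept H3K4me1 at each. Others with 2 such bins were the phosphatase gene Pdxp (H3K4me2 4.921, 4.702, 1.314 and 1.501 kb), the DNA repair gene Xrcc3 (6.509, 6.339, 3.764 and 4.091 kb), Bcr (6.512, 6.455, 4.022 and 4.18 kb) and the cyclin gene Ccnf (6.682, 6.391, 4.184 and 4.421 kb), named by their count of such bins, which fixes this direction.

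H3K4me1 marked a minority of these bins in each line and was more frequent in both mutant lines. This mark was not used by the rule. It marked 18.7% of the member bins in 159-1, 16.4% in 1014, 33.4% in 236L and 29.5% in 236R. The groups did not overlap. The control mean was 17.57 ± 1.661% (SD, n = 2 lines) and the mutant mean 31.41 ± 2.763% (SD, n = 2 lines), a difference of 13.84 percentage points (exact two-sided permutation p = 0.333, the smallest that 2 against 2 lines allow). The difference exceeds both SDs, but this design cannot pass a threshold of 0.05. It was 11.9 points without 236L. With the H3K4me1 lists cut to equal covered length it was 14.4 points. No label names a batch, and the part of any batch in this difference was not tested.

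The KDM6A-free gene ends showed a difference of like size from a higher level. There H3K4me1 marked 39.3, 37.6, 47.9 and 52.5% in 159-1, 1014, 236L and 236R, a difference of 11.76 points (exact two-sided permutation p = 0.333). At the distal sites it marked 73.9, 72.8, 29.1 and 78.2%, where the mutant lines lay on either side of the control lines. Of all 201426 gene-end bins it marked 10.9, 11.5, 15.7 and 13.6%, below the members in each line. There too both mutant lines were above both control lines. Whether the difference at member bins departs from that at KDM6A-free ends was not tested, and the values stand 13.84 against 11.76 points.

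**Figure D2:**
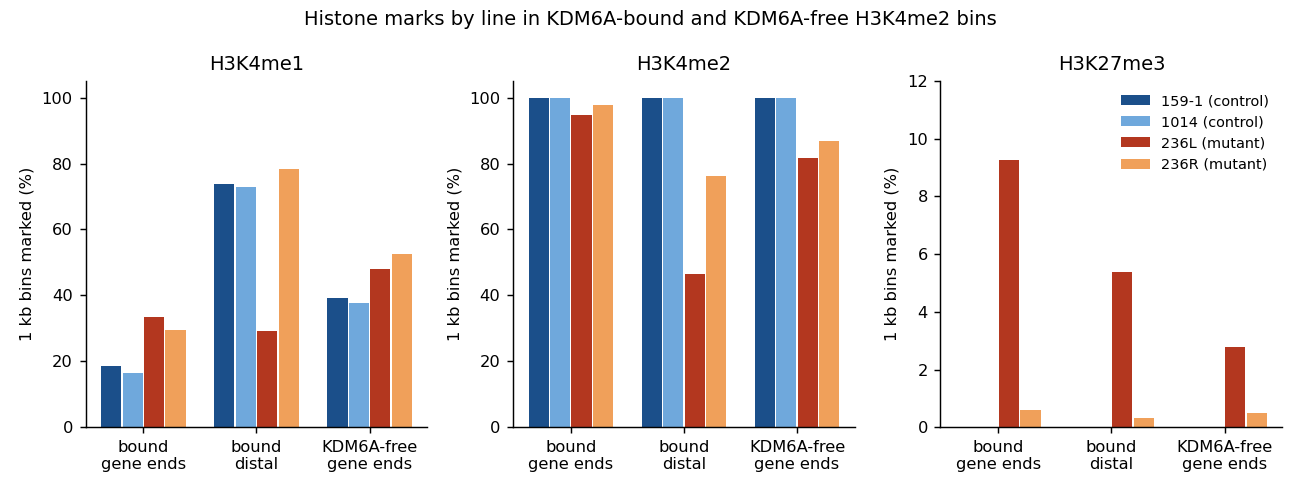
The percentage of 1 kb bins marked by H3K4me1, H3K4me2 and H3K27me3 (y axes, from 0, with a shorter scale for H3K27me3) in each line for KDM6A-bound gene ends, bound distal sites and KDM6A-free gene ends. Bars are single libraries, H3K4me2 and H3K27me3 in the control lines are fixed by the rule, and H3K4me1 at the bound gene ends is higher in both mutant lines (33.4 and 29.5%) than in either control line (18.7 and 16.4%).

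By pattern over the lines, 4605 member bins (53.6%) had H3K4me1 in no line. The next most common pattern was H3K4me1 in 236L alone (1230 bins), then in all 4 lines (639), in both mutant lines and no control line (523), in both control lines and 236R (478) and in 236R alone (398). The 523 mutant-only bins are 6.08% of the members. Of all 201426 gene-end bins, 2.05% had this pattern, and of the 31495 with control H3K4me2 and no control H3K27me3, 7.25% had it. The members' share therefore lies above the first background and below the second. Without 236L, 921 bins had H3K4me1 in 236R and in neither control line. They are the 523 mutant-only bins and the 398 (4.63%) with H3K4me1 in 236R alone. Of the KDM6A-free gene ends, 8.13% were mutant-only and 5.28% had it in 236R alone, both above the members' shares. The reverse pattern, both control lines and neither mutant line, held 34 bins (0.395%), against 1.44% of all gene-end bins and 1.3% of the 31495. Of the bins with H3K4me1 in both control lines, 94.7% had it in 236R and 56.6% in 236L.

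**Figure D3:**
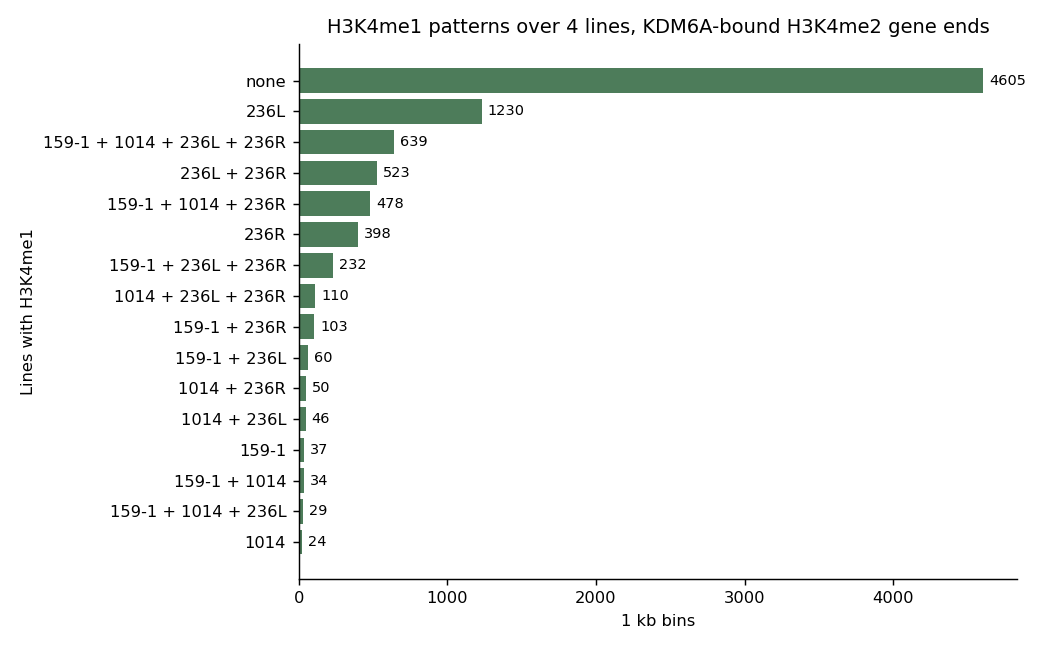
The number of KDM6A-bound H3K4me2 gene-end bins (x axis) with each combination of lines marked by H3K4me1 (y axis). The longest bar, no line, holds 4605 bins, and H3K4me1 in 236L alone (1230) is more frequent than in 236R alone (398).

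Cover around 4922 annotated starts whose bin is a member gave the shape of the marks. KDM6A covered 95.7% and 95.1% of the starts themselves in 159-1 and 1014, and 7.84% and 6.42% of positions 2 kb into the gene. H3K4me2 covered 99.2% or more of the starts in each line and 52.8 to 58.1% at 2 kb. H3K4me1 had a gap at the start and a shoulder on each side in all 4 lines. It covered 6.14, 5.2, 20.5 and 12.3% of the starts in 159-1, 1014, 236L and 236R. At 1 kb upstream this was 29.3, 28.6, 45.1 and 43.4%, and at 1.5 kb into the gene 40.7, 38.5, 56.4 and 56.7%. Both mutant lines were above both control lines at these 3 positions. The same held around 2742 starts in KDM6A-free bins, with 28.8, 29.8, 48.8 and 44.2% at 1.5 kb into the gene.

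**Figure D4:**
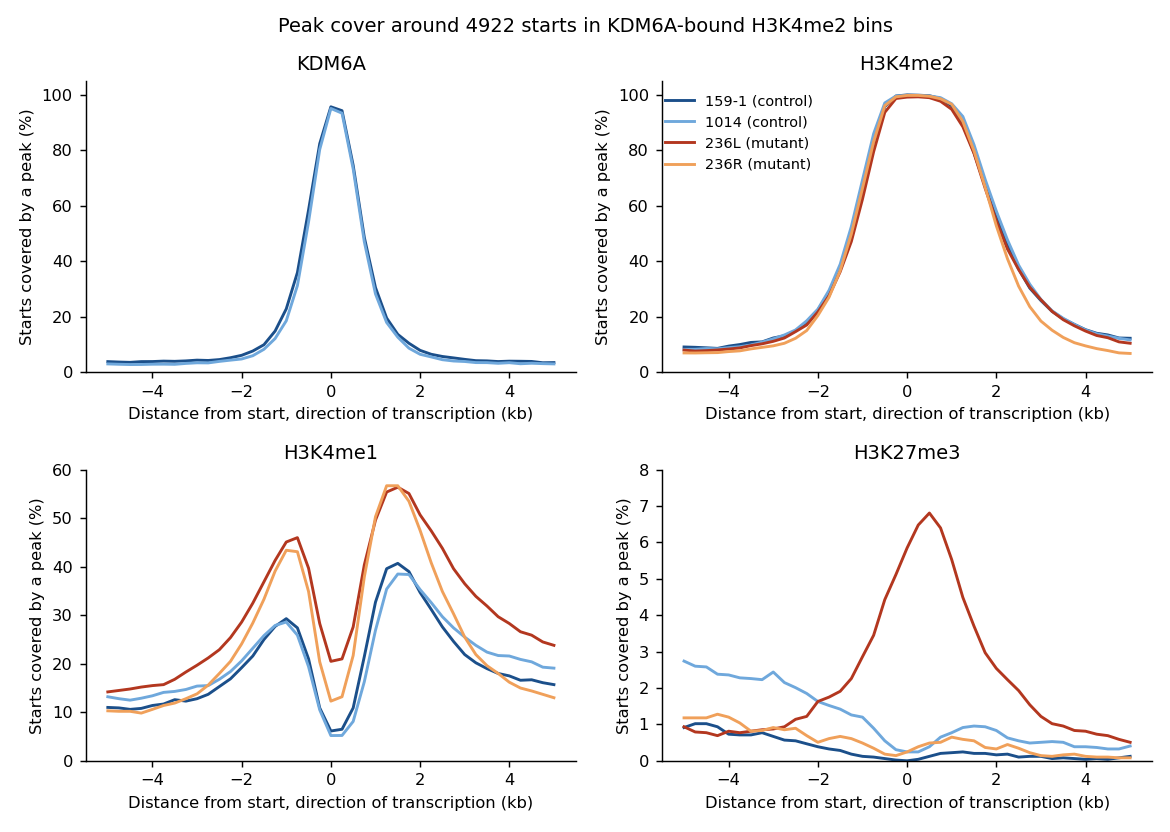
The percentage of 4922 starts covered by a peak (y axes) against distance from the start in the direction of transcription (x axes, kb) for KDM6A, H3K4me2, H3K4me1 and H3K27me3, with 1 curve per library. H3K4me1 dips at the start and is higher in both mutant lines at the start, at 1 kb upstream (45.1 and 43.4%) and at 1.5 kb inside the gene (56.4 and 56.7%). H3K27me3 at 0.5 kb inside the gene is higher in 236L (6.81%) than in the other lines (at most 0.488%).

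Genes with the most H3K4me1 mutant-only bins included transcription factors and secreted factors. Id2, an inhibitor of basic helix-loop-helix factors, had 0, 0, 2.782 and 2.096 kb of H3K4me1 near its ends in 159-1, 1014, 236L and 236R, with 6.582, 6.704, 6.406 and 6.519 kb of H3K4me2. The Notch target Hes1 had 3.594, 0.843, 5.226 and 5.259 kb of H3K4me1, and the angiogenic factor gene Vegfa 2.055, 0.973, 2.905 and 3.963 kb. Ier5l had 3.017, 2.067, 4.669 and 5.476 kb, and Pappa, a protease of insulin-like growth factor binding proteins, 0.273, 0, 2.558 and 2.188 kb. The mutant lines lay above the control lines at these 5 genes, which the count of such bins had chosen. Lmx1b, a LIM homeobox factor, was chosen in the same way but had 5.052, 5.813, 4.817 and 5.533 kb over its whole windows, where the groups overlapped. In all, 596 genes had a mutant-only bin and 41 a control-only bin.

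H3K27me3 appeared at member bins in 236L and seldom in 236R. It marked 796 bins (9.26%) in 236L and 53 (0.616%) in 236R, of which 35 were shared. By the rule it marked none in the control lines, so its presence in the mutant lines is given as a count beside its background. The 35 shared bins are 0.407% of the members, against 0.119% of the 182692 gene-end bins without control H3K27me3. Of the KDM6A-free gene ends 0.193% had the mark in both mutant lines, and of the distal sites 0.198%. Hoxb4 alone had 4 of the 35 bins near its ends. The count of 35 fell to 4 with peaks of q up to 0.001 and to 17 at equal covered length. Either mutant line had the mark at 814 members (9.47%), against 2.06% of those bins and 5.57% of the bins with control H3K4me2. Without 236L this count was 53 (0.616%). In 236R the KDM6A-free gene ends had 0.485% and the distal sites 0.341%. Among bins that hold a start, 236R had the mark at 0.319% of the members and 0.847% of the KDM6A-free bins. The 236L list was the shortest of the 4 H3K27me3 lists, and its share of marked bins was 5.37% at the distal sites and 2.79% at the KDM6A-free gene ends.

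At most of these bins 236L also had H3K4 methylation. Of the 796 bins, 95.9% also had H3K4me2, near the 94.7% of all members, and 73.1% also had H3K4me1 in that line, whereas H3K4me1 marked 33.4% of all members there. Whether both marks lie in the same cells was not measured, and in bulk material fewer cells with a mark and less of it per cell cannot be told apart. The same bins had H3K4me1 in 55.3% of cases in 236R and in 33.2 and 28.6% in the control lines. Their peaks in 236L had a median fold of 3.585 and a median width of 2.117 kb. Within the 11 kb centred on these bins, H3K27me3 of 159-1 and 1014 touched 5.9 and 18.2%, against 3.06 and 7.43% for all members. Cover around the starts reached 6.81% in 236L at 0.5 kb into the gene, against 0.122, 0.386 and 0.488% in 159-1, 1014 and 236R. At the start itself it was 5.85% in 236L and at most 0.244% in the other lines. Around the 2742 starts in KDM6A-free bins, H3K27me3 cover in 236L was 5.4% at 0.5 kb into the gene and 4.96% at the start. The rise at starts in 236L was thus present in both sets.

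Neuroendocrine genes were among those with H3K27me3 in 236L. Of 18 genes of the neuroendocrine list, 13 had a member bin, and 7 of these (Foxa2, Nkx2-1, Insm1, Sox2, Ncam1, Chga and Mycl) had H3K27me3 at a member bin in 236L. Of all 7350 genes with a member, 646 (8.79%) had this. A gene with more member bins has more places to meet this condition. Nkx2-1 had 9 member bins, Foxa2 8, Mycl 6, Sox2 4, Insm1 3, and Ncam1 and Chga 2 each, against a median of 1. At Mycl 1 of the 6 bins was marked, with 0.143 kb of H3K27me3 near the ends. The part of bin number in the count of 7 was not tested. Insm1, a zinc finger factor of neuroendocrine cells, had 0, 0, 3.901 and 0 kb of H3K27me3 in 159-1, 1014, 236L and 236R and 7.495, 8.023, 3.47 and 6.534 kb of H3K4me2. At Insm1 236L alone had H3K27me3, and its H3K4me2 was the lowest of the 4 lines. Nkx2-1 (chr12:56531935-56536908) had 0, 0, 4.716 and 0 kb of H3K27me3, and Foxa2, a pioneer factor of endoderm, 0, 0, 4.329 and 0 kb. H3K4me2 covered 9.973, 9.973, 9.395 and 9.973 kb at Nkx2-1, which is the whole window in 3 lines, and the whole 9.092 kb window of Foxa2 in all 4. Both therefore carried both marks in 236L.

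Sox2 (chr3:34649995-34652461) was the neuroendocrine-list gene with H3K27me3 in both mutant lines. It had 0, 0, 3.497 and 3.328 kb of H3K27me3 and 7.147, 7.44, 3.617 and 3.692 kb of H3K4me2, and Sox2 is named here for its H3K27me3, so that mark's order is fixed by the choice. H3K4me1 at Sox2 was 0, 0.725, 3.024 and 3.436 kb. Over the 13 genes, H3K4me2 summed to 72.17, 72.89, 50.58 and 65.1 kb, and H3K27me3 to 0, 0, 24.08 and 3.328 kb. H3K4me2 was below both control lines at 11 of the 13 genes in 236L and at 6 in 236R, where 3 were above. Of all 7350 genes with a member, 47.7% were below both control lines in 236L and 46.6% in 236R, where 26.1% were above. The macrophage marker sums given above move with 236L, and their part in these values was not tested. In the peptide and granule genes, Calca had 4.39, 4.822, 2.304 and 3.747 kb of H3K4me2, Chga 3.461, 4.002, 2.622 and 3.907 kb, and Grp 2.96, 2.991, 1.719 and 3.641 kb.

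**Figure D5:**
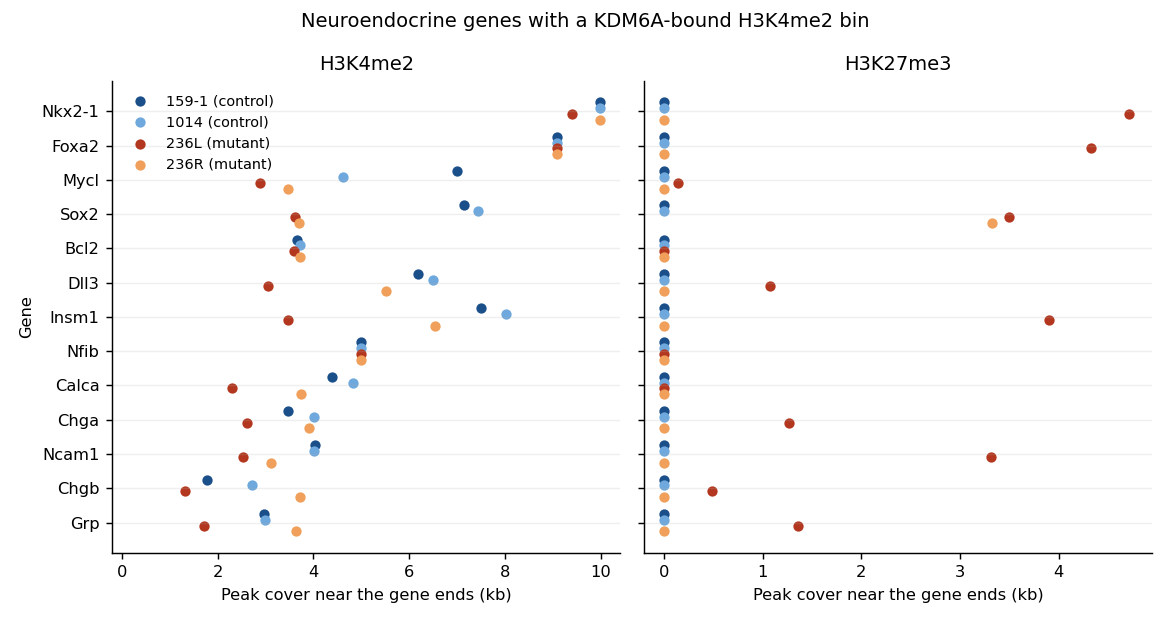
Peak cover within 2.5 kb of the gene ends (x axes, kb) of H3K4me2 and H3K27me3 for the 13 neuroendocrine genes with a KDM6A-bound H3K4me2 bin (y axis), with 1 point per line. H3K27me3 is 0 in both control lines at all 13 genes, above 0 in 236L at 10 and in 236R at Sox2 alone.

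Several Hoxb genes had H3K27me3 in both mutant lines. Of 39 HOX genes, which pattern the body axis, 8 had a member bin, Hoxb2 to Hoxb9, and all 8 had H3K27me3 at a member bin in 236L. These neighbours share windows and bins and are 1 locus on chromosome 11. Hoxb4 (chr11:96318267-96321638) had 0, 0, 6.574 and 3.302 kb of H3K27me3 and 7.218, 8.371, 3.206 and 8.371 kb of H3K4me2. Hoxb7 had 0, 0, 8.897 and 2.464 kb of H3K27me3, 9.559, 5.083, 3.991 and 9.559 kb of H3K4me2 and 0.622, 3.561, 4.017 and 6.308 kb of H3K4me1. Hoxb5 had 0, 0, 7.609 and 0.599 kb of H3K27me3. Over the 8 genes H3K27me3 summed to 2.56, 2.195, 63.25 and 18.49 kb, and H3K4me2 to 66.94, 58.66, 28.01 and 67.67 kb. For H3K4me2 only 236L stood apart.

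Other genes with H3K27me3 bins in both mutant lines were few, and 30 genes had any. Neurog3, a proneural factor, had 0, 0, 5.199 and 4.886 kb of H3K27me3 and 5.518, 6.641, 1.385 and 2.104 kb of H3K4me2, and was likewise chosen by its H3K27me3. Nkpd1 had 0, 0, 2.643 and 2.174 kb of H3K27me3. Tril, Mecom and Tmem151b already had control H3K27me3 elsewhere in their windows, with 2.357 kb at Tril in 1014, 1.789 and 0.693 kb at Mecom and 1.002 and 2.634 kb at Tmem151b.

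Housekeeping and cell cycle lists had H3K4me2 and no H3K27me3 at a member bin, a state that most genes with a member share. Of the 7350, 661 (8.99%) had H3K27me3 at a member bin in either mutant line. None of the 24 cytosolic ribosomal protein genes with a member (of 35), the 18 DNA replication genes (of 31), the 18 RNA splicing genes (of 28), the 16 cell cycle genes (of 30), the 14 RNA polymerase II and general factor genes (of 30) and the 10 proteasome genes (of 31) had one. Their summed H3K4me2 near the ends was 109.6, 102.7, 100.4 and 91.38 kb for the ribosomal list in 159-1, 1014, 236L and 236R, and 68.84, 68.47, 66.52 and 64.95 kb for the replication list. In 236R, 19 of the 24 ribosomal genes lay below both control lines for H3K4me2, against the 46.6% of all genes with a member. In 236L 12 of the 24 lay below both, near the 47.7% of all genes with a member. H3K4me1 was higher in 236L than in both control lines at 19 of the 24 ribosomal genes and at 14 in 236R, where 65.9% and 57.5% of all 7350 genes lay above both. The splicing list had 20.97, 21.97, 42.73 and 36.56 kb of H3K4me1 and was above both control lines at 13 genes in 236L and 14 in 236R, of 18. The count in 236L is near the share of all genes. At Hnrnpu, an RNA-binding protein, H3K4me1 was 0, 0.238, 4.204 and 1.501 kb, and at Gtf2a1 0.396, 0.388, 1.866 and 0.489 kb.

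All 10 PRC2 subunit genes had a member bin, as did 15 of 18 genes of the H3K4 methyltransferase complexes and KDM6 enzymes. Of all protein-coding genes, 35.6% had one. Ezh2, the catalytic subunit of PRC2, had 3.679, 3.77, 3.72 and 3.98 kb of H3K4me2 and 0, 0, 0.3 and 0.326 kb of H3K4me1. Kmt2c, an H3K4 methyltransferase, had 4.474, 4.731, 4.269 and 4.311 kb of H3K4me2, and its partner enzyme Kmt2d 4.237, 4.855, 5.481 and 4.522 kb with 0.4, 1.118, 3.674 and 2.487 kb of H3K4me1. The demethylase gene Kdm6b, a relative of Kdm6a, had 6.546, 5.579, 6.022 and 5.951 kb of H3K4me2. In the 15 genes H3K4me1 summed to 22.29, 25, 37.08 and 36.1 kb and was above both control lines at 10 genes in 236L and 13 in 236R, against the same 65.9% and 57.5% of all genes with a member. H3K4me2 over these genes summed to 65.04, 66.78, 65.63 and 66.1 kb, a spread of less than 2 kb over the 4 lines.

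Genes with many member bins are wide KDM6A domains by the rule, and their marks are given as a description. Txnip (chr3:96557957-96561857) had 9 bins, with 7.368 and 7.341 kb of KDM6A and 8.9, 8.178, 8.042 and 7.276 kb of H3K4me2. Nkx2-1 also had 9, Foxa2 8, and the actin gene Actg1 7. Krt8, a keratin of simple epithelia, had 6 bins and 10, 8.818, 2.339 and 5.904 kb of H3K4me2, with 0, 0, 2.329 and 0 kb of H3K27me3. In contrast, Irf2bp2, a transcriptional corepressor, had 9.322 kb of H3K4me2 in 159-1 and 10 kb in the other 3 lines. The notch and YAP list of 23 non-neuroendocrine genes had 11 with a member. Its ligand Jag1 had 0.972, 1.07, 4.514 and 1.758 kb of H3K4me1, and Myc, from the NEUROD1 list, 0, 0, 4.099 and 0.723 kb. Both were chosen after their values were seen, and their lists varied. Of the 11 genes, H3K4me1 in 236R was above both control lines at 6 and below both at 4. In 236L it was above at 7 and below at 1. These counts above are near the 57.5% (236R) and 65.9% (236L) of all genes with a member. Of the 6 NEUROD1-list genes with a member, H3K4me1 was above both at 2 and below both at 4 in 236L. In 236R it was above at 4 and below at 1, and the list summed to 16.69, 17.06, 12.33 and 17.93 kb.

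The joint state of the 3 marks differed most in 236L. In 159-1 and 1014, 81.3% and 83.6% of the members had H3K4me2 alone and the rest had H3K4me1 with it. In 236R, 70% had H3K4me2 alone, 27.1% had both H3K4 marks and 0.5% had none of the 3. In 236L, these shares were 60.1%, 25.7% and 4%, and a further 6.68% had all 3 marks. Over all lines 91 joint states occurred. The most common was H3K4me2 alone in every line (4512 bins, 52.5%), followed by the same with H3K4me1 added in 236L alone (990 bins, 11.5%). Both H3K4 marks in every line held 435 bins.

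Across classes of KDM6A peak strength H3K4me1 varied more than the other marks did in 236L. The median fold in 159-1 was 3.225 in the weakest of 5 classes of KDM6A peaks and 5.319 in the strongest. H3K27me3 in 236L marked between 9.01 and 9.6% in each class, and H3K4me2 in 236L between 93.5 and 96.2%. H3K4me1 in 159-1 was 25, 19.5, 17.8, 14.1 and 17.3% from the weakest to the strongest class. In 1014 it was 22.4, 17.5, 14.6, 12 and 15.5%. In 236L it was 35.1, 34.8, 34.8, 30.5 and 31.6%, and in 236R 35.1, 31, 29.1, 24.7 and 27.5%. In all 4 lines the first class was the highest and the fourth the lowest, and the mutant lines were above the control lines in each class.

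Promoter sequence differed between the sets in base composition and in a few motifs. Over the 250 bases before the start, median GC content was 64.8% at 4922 member starts, 56.8% at 2742 KDM6A-free H3K4me2 starts and 56% at all 20063 starts. Peaks of KDM6A in 159-1 and 1014 still covered 41.6 and 38.5% of those 2742 starts themselves, since their bins were covered by less than the 50% the rule asks for. The ratio of observed to expected CpG had medians of 0.826, 0.640 and 0.547. The SP motif GGGCGG was present in 70.4% of member starts, 53.7% of KDM6A-free starts and 43.4% of all. In the same order, the NRF1 motif GCGCATG was present in 6.83, 5.36 and 3.99%, and the TATA motif TATAAA in 4.47, 6.6 and 11.7%. The NFY motif CCAAT was present in 31.5, 42.1 and 35.3%, so members had the lowest share. Motifs were counted on both strands, without a correction for base composition. The ETS motif CCGGAAG was present in 15.8% of member starts, 14.6% of KDM6A-free starts and 9.22% of all.

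Within the members the share of the ETS motif, and of some other motifs, differed between histone states. It was present in 18.8% of 3509 member starts with H3K4me1 in no line, in 9.38% of 192 with H3K4me1 in both mutant lines alone and in 3.2% of 125 with H3K4me1 in all 4 lines. At the 303 starts with H3K27me3 in 236L it was present in 2.97%, against 16.7% of the 4619 others. Median GC content of these 5 classes was 64.8, 64.8, 64, 67.6 and 64.4% in that order, and the median ratio of observed to expected CpG was 0.859, 0.739, 0.689, 0.732 and 0.833. The 2 classes with the highest ETS shares thus had the highest CpG ratios, and the part of base composition in the motif shares was not tested. In the same order the NFY motif was present in 32.9, 26, 26.4, 20.8 and 32.2%, and the NRF1 motif in 7.89, 3.65, 4.8, 4.29 and 6.99%. The pattern was thus not particular to ETS. For SP the shares were 70.6, 71.4, 68, 68.6 and 70.5%. These shares describe letters, and no factor was mapped.

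Values near the limits of the rule were as follows. Bins covered to 50 to 60% in their least covered list numbered 1761, and H3K4me2 marked 92.3 and 95.5% of them in 236L and 236R, against 90 and 94.3% of the 1963 bins at 40 to 50%. Bins with a gene end at 1.5 to 2.5 kb numbered 605, with H3K4me2 in 77.2 and 90.4% and H3K4me1 in 52.4, 49.6, 44.6 and 64.6% of them. The 380 bins at 2.5 to 3.5 kb, outside the rule, had H3K4me2 in 70.3 and 87.4% and H3K4me1 in 59.2, 54.7, 39.5 and 66.6%.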

How the data were processed

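ChIP-seq peak lists of 14 libraries were used (3 histone marks in 4 lines, KDM6A in 2); the 10 input samples have no list here and were not analysed here. The submitters' processing notes name Bowtie2 2.4.2, MACS3 3.0.0a7 and the build mm10, without their order. For the calling threshold, control track and duplicates, the setting is not given in the sources used here. Per the labels' protocols, cells for KDM6A were also crosslinked with disuccinimidyl glutarate (2 mM). Each list holds 1 library's broad peaks with the fold enrichment (a linear ratio), the −log10 p-value and the −log10 q-value, as the authors deposited them. These are the authors' own values and were compared only within 1 list. No read counts were used, so depth is unknown, and lower depth or enrichment can shorten a list.

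Peaks of a list were merged, and a 1 kb bin was marked where they covered at least 50% of it. Gene ends came from an NCBI table (GRCm38.p6), and strand and starts from the RefSeq promoter table, which matched 16457 of 20665 genes by gene ID. Kilobases at a gene are peak cover within 2.5 kb of its ends, so at most 10 kb. Named genes were the 10 with the most member bins overall and with the most bins in each of 4 classes (no H3K4me2 in the mutant lines, H3K4me1 mutant-only, H3K4me1 control-only, H3K27me3 in both or either mutant line), leaving out Gm and Rik symbols, plus genes of 18 lists; some of these genes are not reported here. Members and lists were chosen with earlier results of these data known. The H3K4me1 share was compared by an exact two-sided permutation test over 4 lines; bins are not replicates. The steps were tested on planted peaks. Alternatives are under the closing section. Python 3.11.15, numpy 2.4.6 and pandas 2.3.3 were used. Fancc and Hoxb8 promoters were not printed because their start bins are no members.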

Additional observations from a re-analysis of the deposited data

How the results depend on the processing

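Over 9 results and 13 settings there were 106 alternative values, of which 63 kept within the limits used, 43 lay outside them and 0 changed sign. The limits were 1.5 times for a count and 1 SD between lines for a share or the difference from KDM6A-free ends. The H3K4me1 difference was held only to its sign, so its size had no limit. Counts and shares cannot change sign. The main values are 8598 bins, 94.3% and 1.9% with H3K4me2 in both and in neither mutant line, 13.8 points of H3K4me1, 523 mutant-only and 34 control-only H3K4me1 bins, 35 and 814 bins with H3K27me3 in both and in either mutant line, and 17.7 points of H3K4me2 above KDM6A-free ends. The cause of a move was not tested, except that a cover threshold or a line left out changes which bins enter. With bins covered to at least 10%, there were 16949 members, 1756 mutant-only and 110 control-only H3K4me1 bins, and 108 and 1743 H3K27me3 bins. With 90% these were 3033, 135, 9, 13 and 246. With peaks of q up to 0.001, H3K27me3 marked 4 and 315 bins. With ends within 1 kb the difference from KDM6A-free ends was 13.3 points. With 5 kb it was 20.4 points, the share kept 91.7% and the control-only count 52. At equal covered length 17 bins had H3K27me3 in both. With KDM6A-free bins that hold no base of a peak the difference was 25.6 points. Annotated starts only, chosen after seeing the data, gave 96.6%, 16 control-only bins, 22 H3K27me3 bins in both and 16.1 points.

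With each line left out in turn, members numbered 11108 to 12621 (control lines only), the share kept ranged from 91.5 to 97.7%, the share in neither from 2.28 to 5.3%, the H3K4me1 difference from 11.3 to 15.8 points, mutant-only bins from 921 to 1753, control-only bins from 63 to 512, H3K27me3 bins in both from 51 to 796 and in either from 53 to 1309, and the difference from KDM6A-free ends from 10.9 to 21 points. The 53 and 796 are 236R and 236L alone. The H3K4me1 difference had the same direction in every alternative. Assigning the 2 control H3K4me2 lists by file name exchanges the 3.798 and 3.838 kb widths of 159-1 and 1014 and alters no comparison of groups. No paired analysis was possible because replicate numbers are names only. Depth is unknown, so a missing peak is no evidence that the mark is absent.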

Other observations

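The cell type marker lists had a member bin at a smaller share of their genes than the 35.6% of all protein-coding genes. Entry was decided by the control lines alone, and on lists this short the gap was not tested. Of 14 macrophage markers, 3 had a member bin (C1qa, C1qc and Cd68), as did 3 of 12 T and B cell markers, 3 of 15 lung epithelial markers and 0 of 14 fibroblast and endothelial markers. At Cd68, a lysosomal glycoprotein of macrophages, H3K4me2 was 2.089, 2.278, 6.957 and 1.961 kb in 159-1, 1014, 236L and 236R. At Foxj1, the factor of ciliated cells, H3K4me2 was 5.663, 3.38, 3.108 and 3.979 kb and H3K4me1 8.973, 9.183, 3.84 and 7.786 kb. Of 20 cholesterol synthesis genes, 10 had a member, with summed H3K4me2 of 44.66, 45.48, 43.89 and 38.6 kb. In 236R 9 of the 10 were below both control lines, against 46.6% of all genes with a member. In 236L 6 of the 10 were below both, against 47.7%. Of 18 antigen presentation genes, 11 had a member, with summed H3K4me1 of 20.5, 18.76, 34.46 and 22.56 kb. In 236L 10 of the 11 were above both control lines, against 65.9% of all genes with a member. In 236R 6 of the 11 were above both and 4 below both, where 57.5% of all genes with a member were above.

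Of the 20 genes of the NEUROD1 neuronal list, 6 had a member bin (30%), against 35.6% of all protein-coding genes. Neurod1 was not one of them. Near its ends 159-1 and 1014 had 0.472 and 0.863 kb of KDM6A and 3.901 and 7.968 kb of H3K27me3. The rule uses both of these marks in the control lines, so this absence is a matter of entry.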
